A study of Mus musculus with 49 samples.

Results

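The chromatin modifier enzyme genes described here are the protein-coding genes of the autosomes whose symbols begin with the standard names of histone deacetylases (Hdac), sirtuins (Sirt), lysine demethylases (Kdm), lysine methyltransferases (Kmt, Setd and Ezh), lysine acetyltransferases (Kat), DNA methyltransferases (Dnmt) and Tet dioxygenases. The rule used names and positions and no measured value. It found 65 of the 52636 genes in the table, of which 9 were Hdac, 7 Sirt, 15 Kdm, 8 Kmt, 8 Setd, 8 Kat, 5 Dnmt, 3 Tet and 2 Ezh genes. A further 5 genes of these names on the sex chromosomes and 9 that are not protein-coding were left out. The study compared 3 ways of isolating RNA from the striatal projection neurons with D1 or with D2 dopamine receptors (D1- and D2-MSNs) in the nucleus accumbens (NAc) of C57BL/6J mice, whose age was not stated in the sources used here.

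Nuclear-FACS (6 D1 and 5 D2 libraries) sorted GFP-labelled nuclei from frozen tissue of Drd1-cre or Drd2-cre mice crossed to Thy1-loxPSTOPloxP-EGFP-F mice. Whole cell-FACS (8 D1 and 6 D2 libraries) sorted cells with a cytoplasmic fluorophore driven by the Drd1 or the Drd2 promoter from fresh, papain-treated tissue. RiboTag (6 D1 and 6 D2 libraries labelled male, 5 D1 and 5 D2 labelled female) immunoprecipitated HA-tagged Rpl22 ribosomes from fresh tissue of Drd1-cre or Drd2-cre mice that carried the loxP-flanked Rpl22 allele. Nuclear and whole cell libraries were labelled male, and the authors state that every sample came from a different mouse. The Cre or the promoter, not the NAc itself, defines the cell type in every group, so any other cell that has used Drd1 or Drd2 would be included.

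Most of these enzymes write or erase the chemical marks of chromatin. Acetyltransferases and methyltransferases add acetyl or methyl groups to lysines of histones, deacetylases and demethylases remove them, Dnmt enzymes methylate cytosine in DNA, and Tet enzymes oxidize methylcytosine as a step toward its removal. In the NAc these enzymes are known from studies of lasting gene regulation after drugs of abuse and stress. Nuclear RNA holds newly made transcripts with introns, whole cell RNA holds nuclear and cytoplasmic transcripts, and RiboTag holds transcripts bound to ribosomes, so a level by method is a level of a different RNA pool.

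Before the enzymes, the libraries themselves set limits. Total counts per library ranged from 3701255 to 68777008 in nuclear-FACS, from 10476223 to 27965357 in whole cell-FACS and from 24076888 to 45641342 in RiboTag. The median total was 6964784.5 in nuclear D1 and 38446843 in nuclear D2. In RiboTag the 10 highest genes, led by ribosomal RNA, took a median of 85.4% to 87.6% of counts by group. Their share had a median of 46.7% (20.3% to 66.9%) in nuclear D1 and 11.7% (5.23% to 13.9%) in nuclear D2. In whole cell libraries it was 4.63% (2.70% to 7.95%) in D1 and 12.6% (3.15% to 54.5%) in D2. Reads on 1418 odorant and pheromone receptor genes, which MSNs should lack, gave a read density that was taken as background. Over all genes it came to a median of 4.52% of counts in nuclear D1, 34.4% in nuclear D2, 28.8% in whole cell D1, 16.1% in whole cell D2 and at most 0.0634% in any RiboTag library. Drd1 and Drd2 followed the labels in every method (mean FPKM of Drd1 5.45 in nuclear D1 and 0.886 in nuclear D2, of Drd2 1.89 and 3.51). In D1 and D2 the mean of Drd1 was 48.6 and 1.78 in whole cell libraries, and 6.00 and 1.56 in RiboTag labelled male. That of Drd2 was 0.3965 and 19.8 in whole cell, and 0.106 and 0.701 in RiboTag labelled male. The summed level of 5 D2-MSN markers went against the labels in nuclear libraries, at a mean of 66.4 FPKM in nuclear D1 (15.3 to 111) and 11.2 in nuclear D2 (4.98 to 16.8). No gene of the 8 oligodendrocyte or the 8 astrocyte markers was at 0 in any group. Their summed means were 34.9 and 17.6 FPKM in nuclear D1, and 13.7 and 5.55 in nuclear D2. From nuclear D1 to nuclear D2, 15 MSN markers also went from 115.6 to 22.95, and 7 interneuron markers from 17.2 to 4.37. The 8 microglia markers went from 4.36 to 3.85 and 7 endothelial markers from 1.40 to 3.04. In RiboTag the oligodendrocyte and astrocyte means were at most 2.07 and 0.652. FPKM was scaled within each method, so these values do not compare glia between methods. In bulk RNA, fewer cells of a type and less RNA per cell cannot be told apart.

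Of the 12 RiboTag libraries labelled male, 6 (D1 numbers 1 to 4, D2 numbers 2 and 6) went against their label. They held 42 to 258 counts of Xist, the RNA of the inactive X chromosome, and 1 to 60 summed counts of 4 Y-linked genes (Ddx3y, Uty, Kdm5d and Eif2s3y). The other 6 held 1 to 17 and 289 to 437, and the 10 labelled female held 90 to 402 and 0 to 9. Some of the libraries against their label lay between these sets, such as D2 number 6 with 86 counts of Xist and 60 Y-linked counts. Counts of calls over all members that rest on the libraries labelled male are therefore given with and without these 6. Counts by class and those of partner genes are given with them only, and levels are given by label.

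**Figure D1:**
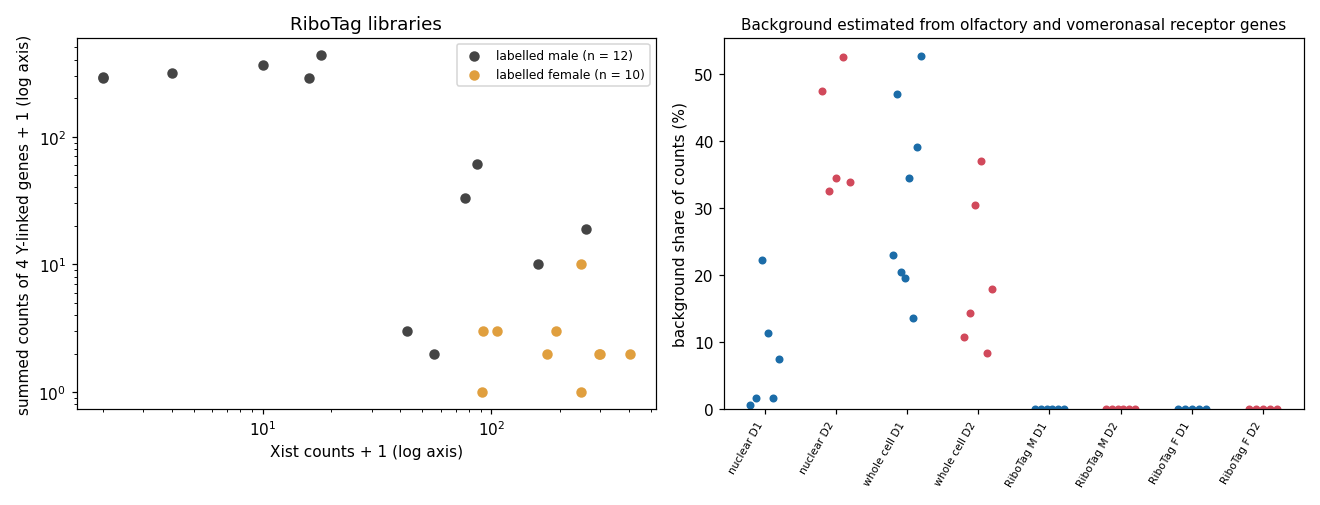
Left, counts of Xist (x axis, log) and summed counts of 4 Y-linked genes (y axis, log), each plus 1, in the 22 RiboTag libraries. Of the 12 labelled male, 6 held 42 to 258 and 1 to 60, partly outside the ranges of the 10 labelled female (90 to 402 and 0 to 9). Right, the background share of counts in percent for each library by group, which has a median of 4.52% in nuclear D1, 34.4% in nuclear D2 and is at most 0.0634% in RiboTag.

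As a set, the enzymes took a similar slice of each RNA pool once the 10 highest genes of a library were set aside. Their 65 genes then held 0.357% to 0.461% of counts in all 47 libraries, with medians by group from 0.371% (RiboTag D1 labelled male) to 0.409% (nuclear D2). Counted against all reads, the share was 0.0429% to 0.0597% in RiboTag and 0.130% to 0.437% in the other methods. By rank among the protein-coding genes of the autosomes, the median member stood between the 72.7 and the 78.4 percentile in every group. How much of these counts background could give differed by group: at the rate of the receptor genes it equalled a median of 35.2% of a member's counts in nuclear D2 (9 members above 50%), 23.2% in whole cell D1, 19.3% in whole cell D2, 13.1% in nuclear D1 and 0.229% to 0.280% in RiboTag.

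RiboTag, the method with the least background by reads on the receptor genes, gave an order of levels in which Kmt2d stood first. That measure does not cover RNA of other brain cells. Levels are read counts divided by the length of the whole gene span and by effective library size (FPKM), scaled within each method, so they rank genes and cell types inside a method and not a gene between methods. Kmt2d, a methyltransferase of histone H3 that acts at enhancers, lies at chr15:98831669-98871204 (GRCm38, minus strand) and reached 1.06 ± 0.0683 FPKM (SD, n = 22), from 0.937 to 1.20, above every value of the next gene. The deacetylase Hdac11 (chr6:91156665-91174692, plus strand) followed at 0.735 ± 0.0459 and the acetyltransferase Kat2a at 0.706 ± 0.0620, which overlapped. Hdac2, a class I deacetylase of repressor complexes, reached 0.482 FPKM, Kat5 0.462, Setd1b 0.448 and Setd1a 0.406. The median member had 0.131 FPKM, and Kmt2d was 8.12 times that. By class, the summed levels in RiboTag D1 labelled female were 2.48 ± 0.134 FPKM for Kmt (SD, n = 5), 2.30 ± 0.0900 for Setd, 1.80 for Kdm, 1.75 for Kat and 1.74 for Hdac, above Sirt (0.357), Dnmt (0.325), Tet (0.198) and Ezh (0.168). These sums run over classes of 2 (Ezh) to 15 (Kdm) genes, so they also follow the number of genes, and Kmt2d alone makes up much of the Kmt sum. Of the 64 pairs of neighbours in the order of genes, the ranges over libraries failed to overlap in 3, so most neighbouring ranks were not separated. Levels were steady between animals, with a coefficient of variation under 20% for 47 of the 65 genes.

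On the length of the exons alone, in place of the gene span, the order changed. Setd3 then ranked first at 3.82 FPKM, followed by Hdac11 at 3.44 and Hdac2 at 2.95, and Kmt2d fell to rank 6 at 2.10. Exons made up a median of 17.3% of the members' spans (1.69% to 74.9%). Hdac11 and Hdac2 stood among the first 4 on either length.

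At the other end, 3 Dnmt genes were near the limit of detection in ribosome-bound RNA. Over all 22 RiboTag libraries there were 18 counts of Dnmt3b (0 in 12 libraries), 5 of Dnmt3l (0 in 17) and 4 of Dnmt3c (0 in 20), against 11027 of Dnmt3a, the main de novo enzyme of neurons, and 7479 of Dnmt1, the maintenance enzyme. The 3 counts taken as the limit of detection amount to 0.0657 to 0.125 CPM in RiboTag libraries, and this limit covers counting error only. The deacetylases Hdac7 (309 counts) and Hdac9 (3596) and the demethylase Kdm4d (209) were low per kilobase of span, at 0.00749, 0.00530 and 0.00698 FPKM. On exon length Hdac9 moved from rank 62 to rank 46 (0.314 FPKM), while Hdac7 and Kdm4d ranked 61 and 58. In nuclear-FACS and whole cell-FACS the same 3 Dnmt genes had counts, Dnmt3b for example 4321 and 2395, yet background at the receptor rate would give 55.6% to 71.3% of the Dnmt3b counts in those groups.

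**Figure D2:**
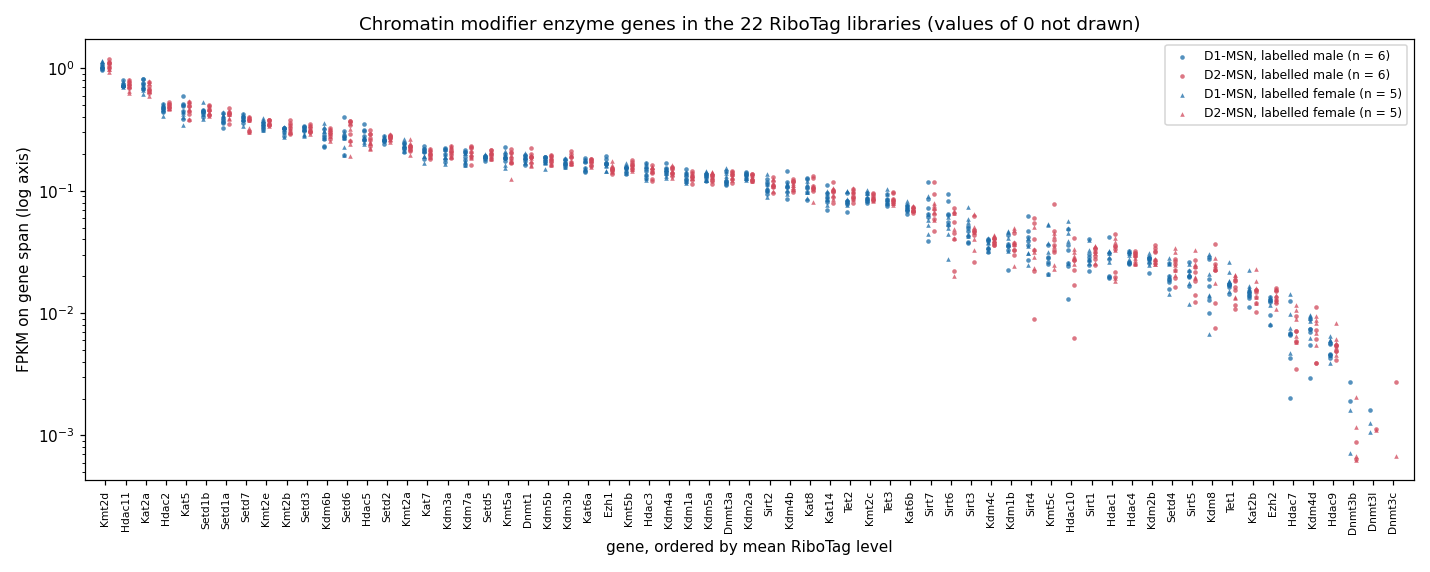
FPKM on the gene span (y axis, log) of each of the 65 genes (x axis, ordered by mean) in the 22 RiboTag libraries, circles labelled male and triangles labelled female, blue D1 and red D2, with values of 0 not drawn. Kmt2d lies at 1.06 FPKM, the median gene at 0.131, and Dnmt3b, Dnmt3l and Dnmt3c at the lower end are at 0 in 12, 17 and 20 libraries.

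Comparing RiboTag with whole cell-FACS sets ribosome-bound RNA against RNA of whole cells. The 2 methods also differed in tissue handling, mouse line and background, so a difference is not a measure of ribosome binding alone. Against whole cell libraries, 31 of the 65 enzymes were higher in RiboTag libraries labelled male and 21 were lower by edgeR's quasi-likelihood test (adjusted p at most 0.05 and more than 0.38 on the log2 scale, adjusted over 26736 genes), while 25% of all genes tested were higher and 61.4% lower. The median log2 difference was 0.35 over the members, -1.64 over all genes and -0.75 over protein-coding genes, and 49 members stood above the protein-coding median. With DESeq2's size factors 25 were higher and 25 lower. Leaving out the 6 libraries that went against their sex label gave 36 and 19. Of the 52 called genes, 32 had libraries that did not overlap between the methods in either cell type. This was judged on log2 CPM scaled over the libraries of this comparison. How many of all genes were apart in this way was not computed, so this count is not shown to be particular to the enzymes.

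The methyltransferases Setd1b and Kmt2d had the largest differences, followed by the acetyltransferase Kat2a. Setd1b and Setd1a, the catalytic subunits of complexes that methylate histone H3 at active promoters, differed by 2.94 (SE 0.107) and 1.81 (SE 0.139), and Kmt2d by 2.81 (SE 0.152). In all, 7 of 8 Setd genes (6 with DESeq2's size factors) and 4 of 8 Kmt genes were higher. Setd4 (-2.08) and Kmt5c (-1.07), a methyltransferase of histone H4, were lower. Acetyltransferases divided in the same way, with 6 of 8 Kat genes higher and 1 lower, or 4 and 2 with DESeq2's size factors. Kat2a rose by 2.22 on the log2 scale (SE 0.152), whereas its paralog Kat2b fell by 1.88 (SE 0.119).

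Other pairs of related enzymes also parted. The Polycomb methyltransferase Ezh1 differed by 0.83 (SE 0.114) and Ezh2 by -1.59 (SE 0.157). Among class I deacetylases, Hdac2 differed by 1.13 and Hdac1 by -0.59, and the call of Hdac1 was lost without the 6 libraries against their label, where its difference was 0.01. Class IIa deacetylases, which shuttle between cytoplasm and nucleus, included Hdac5 at 1.65, Hdac4 at -0.69, Hdac9 at -2.68 and Hdac7 at -2.73. Hdac3, a class I deacetylase, was not called (0.35). Of the Dnmt genes Dnmt1 was higher (0.99), Dnmt3a differed by 0.05 (SE 0.137), and the other 3 were lower, as their counts above show.

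Of 15 Kdm demethylases 9 were higher and 4 lower, and with DESeq2's size factors 6 were higher and 5 lower. Kdm6b, which removes repressive methyl groups from histone H3, differed by 1.70 (SE 0.129) and Kdm1a, the flavin-dependent demethylase of the CoREST complex, by 0.64 (SE 0.123). The lower Kdm genes were Kdm4d (-2.06), Kdm8 (-1.0), Kdm4c (-0.68) and Kdm2b (-0.62). None of the 7 sirtuins was higher and 4 were lower (5 with DESeq2's size factors), namely Sirt4 (-1.41), Sirt5 (-1.34), Sirt3 (-1.24) and Sirt1 (-0.69). The first 3 of these encode the mitochondrial sirtuins. Sirt2, a largely cytoplasmic deacetylase abundant in myelin, differed by 0.02 (SE 0.131). Tet1 was lower (-1.40, SE 0.143), and Tet2 (-0.37) and Tet3 (0.09) were not called.

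Gene structure moved with these differences. Members with at least 17.3% of their span in exons had a median difference of 0.42 (33 genes) and the others of -0.31 (32 genes), and protein-coding genes split at the same value had 0.01 and -1.43. Whole cell libraries also held background that RiboTag did not. After its subtraction 26 members were higher and 18 lower, and Hdac1, Hdac10, Kdm4d and Kdm8 were no longer called lower. The part of intron content in the differences was not tested.

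**Figure D3:**
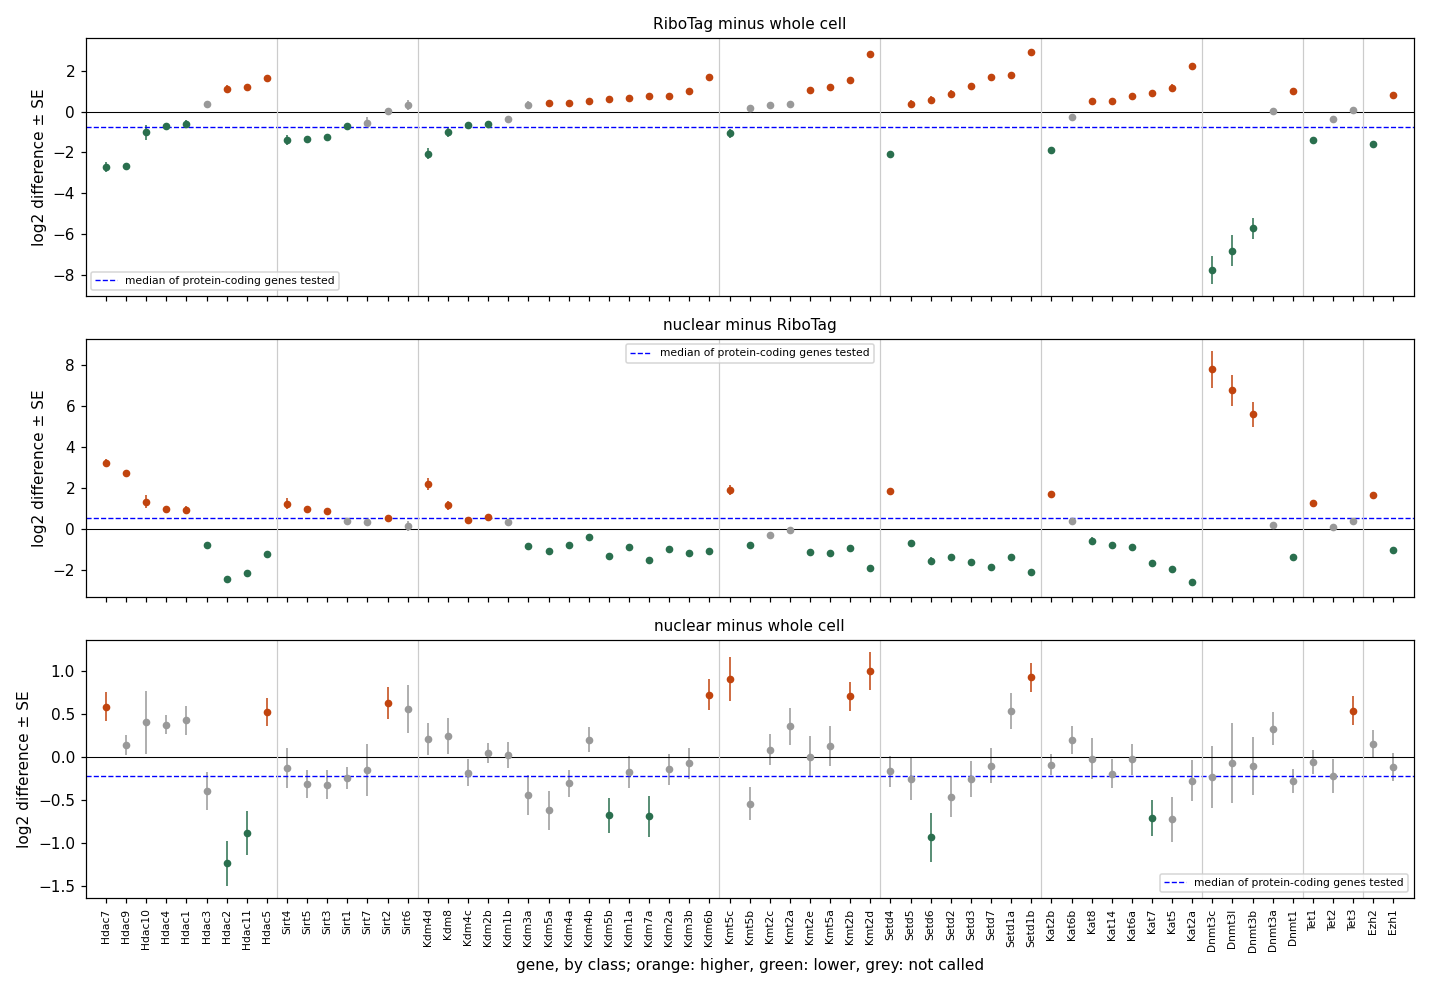
Log2 difference with its SE (y axis) of the 65 genes (x axis, by class) for RiboTag minus whole cell, nuclear minus RiboTag and nuclear minus whole cell, with called genes in orange (higher) or green (lower) and the median of protein-coding genes dashed. In the top panel Setd1b (2.94) and Kmt2d (2.81) are highest, and the fitted values of Dnmt3b, Dnmt3c and Dnmt3l rest on 8, 3 and 2 counts in the 12 RiboTag libraries labelled male.

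FPKM of each library can be set side by side between methods only when scaled over all 47 libraries together, as in this and the next paragraph. On that scale Setd1b (chr5:123142193-123168629, plus strand) ran from 0.129 through a median of 0.155 to 0.234 in whole cell D1 and from 0.134 through 0.225 to 0.279 in whole cell D2. In RiboTag labelled male it ran from 1.15 through 1.28 to 1.31 (D1) and from 1.21 through 1.33 to 1.45 (D2). Every one of these RiboTag libraries lay above every whole cell library. Kmt2d did likewise, with a highest whole cell value of 1.01 and a lowest value of 2.82 in the RiboTag libraries labelled male.

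The class IIa deacetylase Hdac7 (chr15:97792664-97844502, minus strand) was the reverse. It ran from 0.0725 through 0.131 to 0.265 in whole cell D1 and from 0.0595 through 0.178 to 0.225 in whole cell D2, but from 0.00580 through 0.0193 to 0.0358 in RiboTag D1 and from 0.0101 through 0.0189 to 0.0276 in RiboTag D2, both labelled male. The groups did not overlap, although background at the receptor rate would give 45.3% of the Hdac7 counts in whole cell D1 and 36.1% in whole cell D2. Kat2a and Kat2b, acetyltransferases of the SAGA and related complexes, moved apart within this frame. The mean of Kat2a went from 0.440 ± 0.140 (SD, n = 8) in whole cell D1 to 2.16 ± 0.176 (n = 6) in RiboTag D1 labelled male, and that of Kat2b from 0.159 ± 0.0443 to 0.0391 ± 0.00371.

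The next comparison set nuclear RNA against ribosome-bound RNA. In nuclear libraries 21 members were higher and 34 lower than in RiboTag libraries labelled male, beside 58.4% and 31.7% of the 24438 genes tested. The median was -0.59 over the members, 1.35 over all genes and 0.53 over protein-coding genes. With DESeq2's size factors 29 were higher and 31 lower, and all genes then had a median of 1.74. Without the 6 libraries against their label the counts were 23 and 33. Both comparisons with RiboTag share the RiboTag libraries, so they are not independent of each other.

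Kat2a (-2.59, SE 0.154), Hdac2 (-2.44, SE 0.130), Hdac11 (-2.15, SE 0.132), Setd1b (-2.12, SE 0.108) and Kat5 (-1.96, SE 0.144), the catalytic subunit of the NuA4 acetyltransferase complex, were the lowest in nuclei. The reads of Kat5 overlap Rnaseh2c over 55.5% of its span and those of Setd1a overlap Gm49388 over 61.9%, so their counts may hold reads of the neighbour. Hdac7 (3.21, SE 0.195), Hdac9 (2.74, SE 0.0982), Kdm4d (2.21) and Kmt5c (1.89, SE 0.254) were higher in nuclei, as was Dnmt3c, which had 3 counts in the 12 RiboTag libraries. Setd2, which methylates histone H3 along transcribed genes, was lower (-1.40, SE 0.107), Kat2b (1.72), Ezh2 (1.66) and Tet1 (1.25) were higher, and Kmt2a, Dnmt3a, Tet2, Tet3 and Sirt1 were not called. The difference of Kmt2a was -0.08 and turned to 0.44 after background was subtracted. On the scale over all libraries Hdac2 ran from 0.258 through 0.420 to 0.642 in nuclear D1 and from 1.29 through 1.35 to 1.47 in RiboTag D1 labelled male, with no overlap.

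Nuclear-FACS and whole cell-FACS differed less. Of the 65 members 9 were higher and 6 lower in nuclei, beside 4.63% and 8.34% of 35090 genes. The counts were 15 and 6 with DESeq2, 13 and 6 with its size factors and 13 and 9 after background was subtracted. Kmt2d (1.01, SE 0.224), Setd1b (0.93, SE 0.168), Kmt5c (0.91), Kdm6b (0.73), Kmt2b (0.71), Sirt2 (0.63), Hdac7 (0.59), Tet3 (0.54) and Hdac5 (0.52) were higher. Hdac2 (-1.24, SE 0.264), Setd6 (-0.93), Hdac11 (-0.89, SE 0.259), Kat7 (-0.71), Kdm7a (-0.69) and Kdm5b (-0.68) were lower, of which Kdm7a was not called when the repeat run of whole cell D1 number 1 was left out. None of the 15 had libraries apart in both cell types. The cell types did not share these calls. Between D1 libraries 19 members were higher in nuclei and 0 lower (9.15% of all genes were higher), and between D2 libraries 0 were higher and 22 lower (15.8% of all genes were lower). Setd1b differed by 1.85 between D1 libraries and 0.01 between D2 libraries, and Hdac11 by 0.21 and -1.98.

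This reversal was tested as an interaction of method and cell type. In 33 of 65 members the D2 minus D1 difference was lower in nuclear than in whole cell libraries, and in none higher, beside 20.2% of all genes called in either direction. Against RiboTag labelled male the same test called 37 members, 36 of them negative and Tet1 positive (0.62), beside 28.4% of all genes. The first count was 21 (20 negative and Sirt1 positive) with DESeq2's size factors and 1 after background was subtracted, which left only Kmt2d (-1.48, adjusted p = 0.0353). The second was 25 and 23, and it was 0 without the 6 libraries against their label (13 of all genes), where 2 RiboTag D1 libraries remained. There the median over members was -0.56 in place of -0.70, and Setd5 differed by -1.31 (SE 0.298, adjusted p = 0.0615 by edgeR) in place of -1.42 (SE 0.223). RiboTag and whole cell libraries gave 0 members called by edgeR, with 2 at an unadjusted p under 0.05 and 0.0935% of all genes called, and 0 with DESeq2's size factors, after background was subtracted or without the 6 libraries. Background and the markers of MSNs, interneurons, oligodendrocytes, astrocytes and endothelial cells all moved between nuclear D1 and nuclear D2. Their part in the interaction was not tested.

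**Figure D4:**
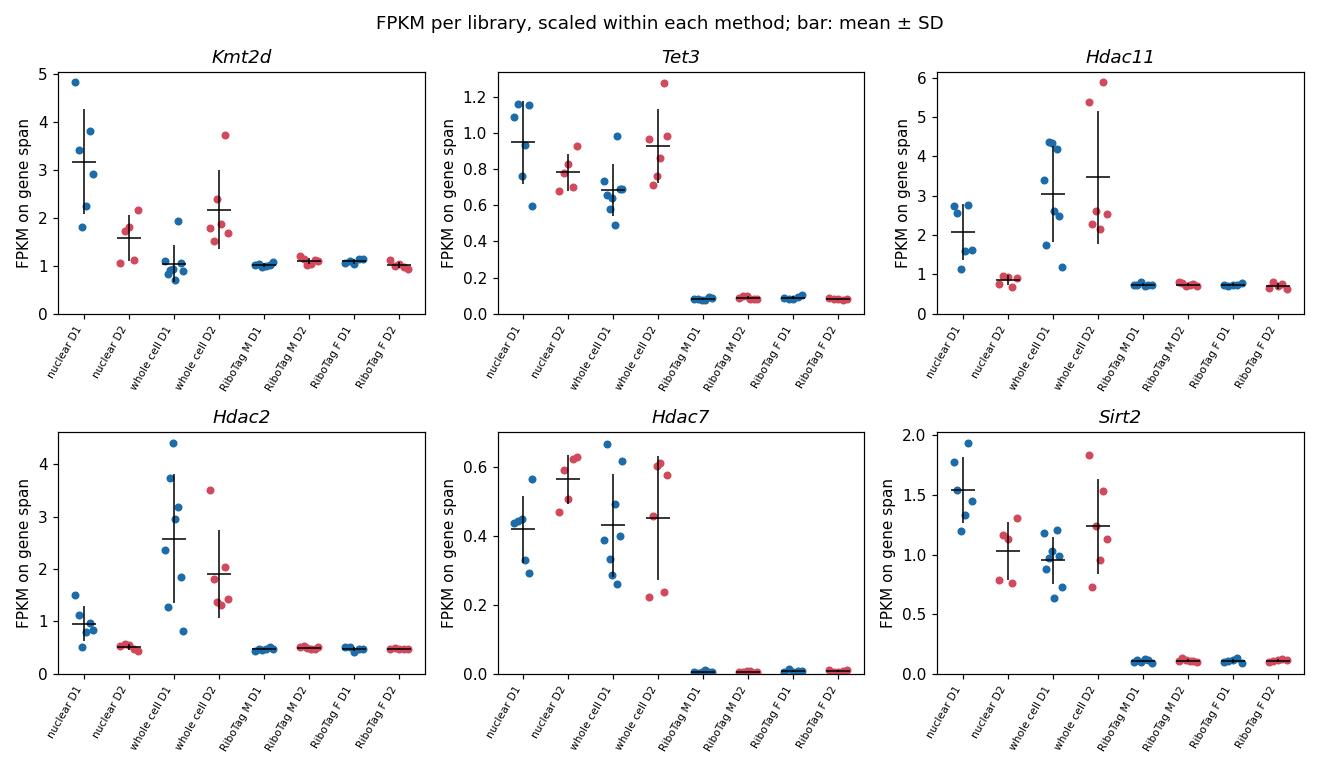
FPKM on the gene span (y axis) of Kmt2d, Tet3, Hdac11, Hdac2, Hdac7 and Sirt2 in each library by group (x axis, blue D1, red D2, M and F the labelled sex), with the bar at the mean and the line at ± SD, scaled within each method. Kmt2d is lower in nuclear D2 (mean 1.58) than nuclear D1 (3.18), higher in whole cell D2 (2.17) than whole cell D1 (1.04), and 1.01 to 1.10 in the RiboTag groups.

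Within each method D1- and D2-MSNs were then compared. In RiboTag, where replicates were tightest, 0 of 37 members tested in the libraries labelled male and 0 of 39 in those labelled female were called by edgeR, beside 2.56% and 1.9% of all genes tested. DESeq2 also called 0 in both, and 6 and 3 members had an unadjusted p under 0.05. Without the 6 libraries against their label 0 of 36 were called. Ezh1 passed the adjusted p in the libraries labelled male (adjusted p = 0.0216) with a difference of -0.24 (SE 0.0651), short of the threshold of 0.38, and differed by 0.00 (SE 0.0766) in those labelled female. Its values labelled male ran from 0.165 through a median of 0.169 to 0.191 FPKM in D1 and from 0.138 through 0.149 to 0.155 in D2, with no overlap (without the 6 libraries its difference was -0.27, adjusted p = 0.242 by edgeR, and without D1 number 3 alone its adjusted p was 0.0543), and averaged 0.173 ± 0.0102 and 0.148 ± 0.00599 FPKM (SD, n = 6 each). The median coefficient of variation of a member within a group was 10.5% and 10.3% (D1 and D2 labelled male) and 9.83% and 9.06% (labelled female), against 24.9% and 34.1% in whole cell-FACS and 25.6% and 13.3% in nuclear-FACS.

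In whole cell-FACS 1 of 44 members tested was called, beside 1.06% of 16352 genes. Kmt2d ran from 0.696 through a median of 0.923 to 1.94 FPKM in 8 D1 libraries and from 1.52 through 1.83 to 3.73 in 6 D2 libraries. The groups overlapped through D1 number 6, the highest D1 value, and the other 7 D1 libraries lay below every D2 library. The difference was 0.85 (SE 0.197, adjusted p = 0.0416 by edgeR). It lost the call without D1 number 1, 3, 4, 5 or 7 or D2 number 3, 5 or 6 (adjusted p from 0.0539 to 0.0866), and also without the FPKM filter (adjusted p = 0.123) and after background was subtracted (0.0512). DESeq2 called 3, Kmt2d (0.98), Dnmt3a (0.68) and Kmt2a (0.50). In RiboTag the difference of Kmt2d was 0.10 (SE 0.0457) labelled male and -0.13 (SE 0.0572) labelled female.

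In nuclear-FACS 32 of the 65 members passed the filter on level, 2 were called and 33 could not be tested, beside 12.2% of 9228 genes. All 32 reached 1 FPKM in a D1 library and 9 of them also in a D2 library, so the other 23, Tet3 and Hdac11 among them, passed through D1 alone. Tet3 (chr6:83362373-83459084, minus strand) was called higher in D2 (0.53, SE 0.136, adjusted p = 0.0208) and Hdac11 lower (-0.44, SE 0.123, adjusted p = 0.0288). Hdac11 ran from 1.14 through 2.10 to 2.77 FPKM in 6 D1 libraries and was 0.7502, 0.967, 0.922, 0.673 and 0.915 in the 5 D2 libraries, with no overlap. Tet3 ran from 0.596 through 1.01 to 1.16 in D1 and was 0.679, 0.781, 0.828, 0.700 and 0.931 in D2. These values overlapped, and their mean was lower in D2 (0.784) than in D1 (0.949), opposite to the sign of the fitted difference.

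Without the filter on FPKM the direction turned. All 65 members were then tested, 34 were lower in nuclear D2 and Sirt1 alone was higher (0.54), beside 19.3% of 30791 genes lower. The median was -0.77 over the members and 0.26 over all genes. Hdac11 (-1.62), Kmt2e (-1.51), Kat2a (-1.48), Setd5 (-1.38), Kmt2a (-1.36) and Kmt2d (-1.34) were among those lower, and Tet3 differed by -0.60 (adjusted p = 0.0569). With background also subtracted, an alternative chosen after seeing the data, 18 were lower and 2 higher, with a median of -0.41, and Tet3 differed by -0.11 (adjusted p = 0.656). On FPKM, 14 members had every D2 library below every D1 library and 9 the reverse. The share of all genes apart in this way was not computed, so these counts are not shown to be particular to the enzymes. Nuclear D2 held the higher background (34.4% against 4.52%), and its part in these counts was not tested.

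Single libraries decided both nuclear calls. Hdac11 lost its call without any 1 of the 5 D2 libraries (adjusted p from 0.0619 to 0.102), and Tet3 without D1 number 1, D1 number 5 or D2 number 5 (0.0657, 0.0528 and 0.0541). Without D2 number 5 no member was called, and without D1 number 3 there were 4. Of other enzymes tested, Hdac2 (-0.05, SE 0.156), Tet2 (0.15, SE 0.167) and Dnmt3a (0.19, SE 0.134) were not called with the filter and were lower without it, at -1.24, -0.95 and -0.92.

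**Figure D5:**
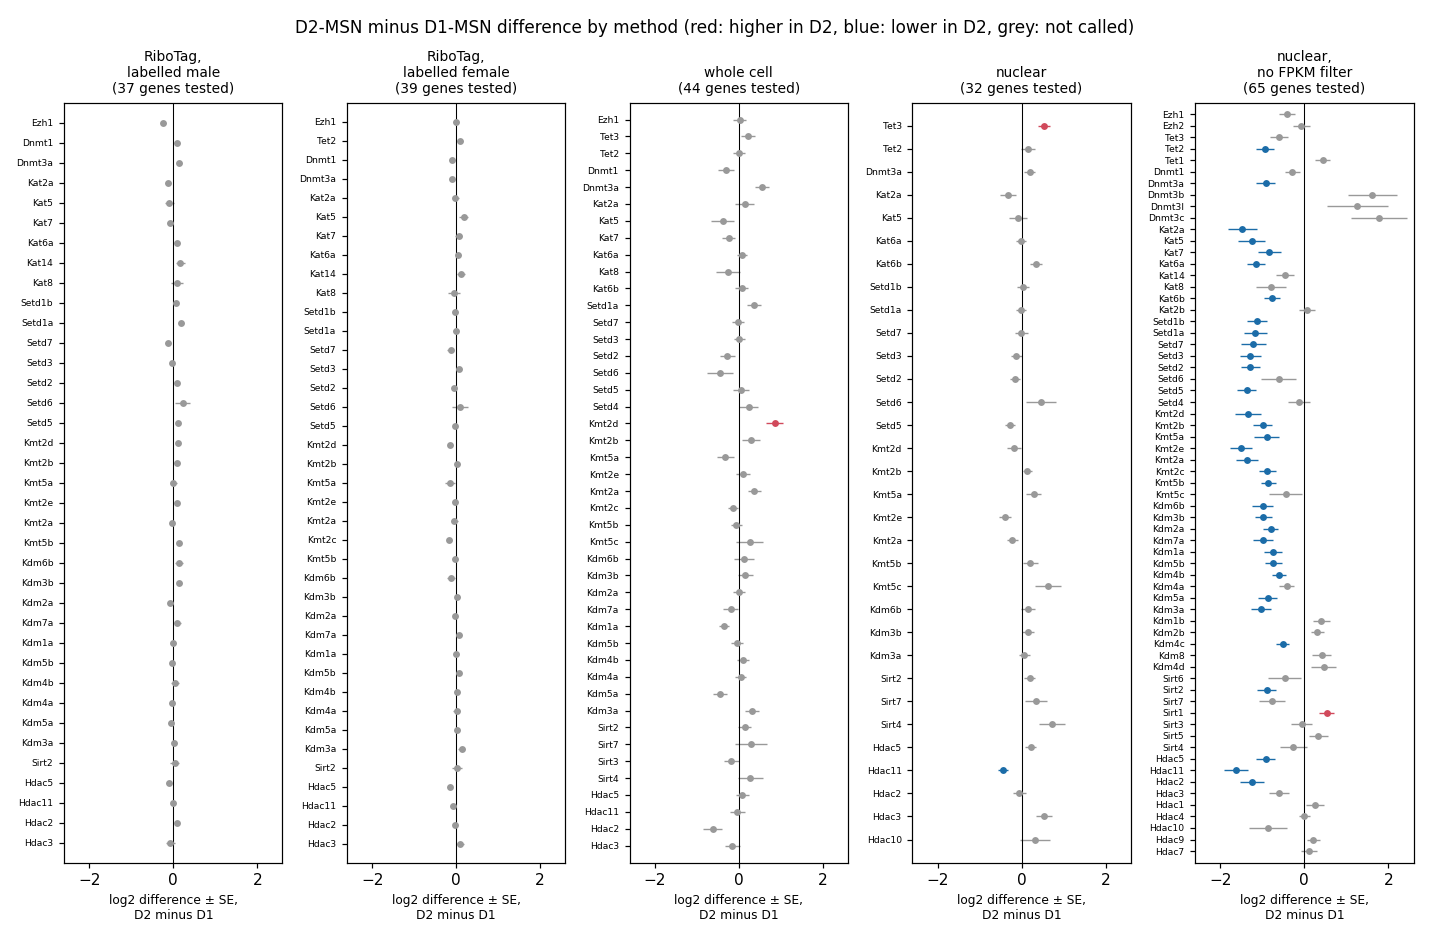
Log2 difference of D2 minus D1 with its SE (x axis) for each gene tested (y axis, by class) in RiboTag labelled male, RiboTag labelled female, whole cell-FACS, nuclear-FACS and nuclear-FACS without the FPKM filter, with called genes in red (higher in D2) or blue (lower). RiboTag has 0 calls, whole cell 1 (Kmt2d), nuclear 2 (Tet3 and Hdac11), and nuclear without the filter 35.

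Labelled sex made no called difference to the enzymes. Between RiboTag libraries labelled female and male 0 of 38 members tested were called by edgeR and by DESeq2, 5 had an unadjusted p under 0.05, and 0.0418% of all genes were called. The lowest adjusted p was that of Hdac5 (-0.17, SE 0.0517, adjusted p = 0.304). Leaving out the 6 libraries against their label also gave 0. The interaction of labelled sex and cell type called 0 of 52 members and 0 of 11133 genes by edgeR, with 6 members at an unadjusted p under 0.05, and without the 6 libraries 0 of 52 (5 at an unadjusted p under 0.05), and no other tool was run on it. Since 6 of 12 libraries labelled male went against that label, the comparison by label is not one of 12 male with 10 female mice.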

How the data were processed

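The authors sequenced ribosomal RNA-depleted total RNA (SMARTer stranded kit, paired ends), aligned it with HISAT2 2.0.5 to GRCm38 and counted reads over whole gene bodies with featureCounts, without strand, and the raw counts per gene were deposited as 1 table of 52636 genes and 49 columns. Because introns were counted and strand was not used, overlapping and antisense genes share reads. Columns were joined to 47 libraries: the lanes of whole cell D2 number 3 were summed, and the repeat column of whole cell D1 number 1 was summed with it. The paper counted more whole cell samples of each cell type than the libraries formed here. The labels list 8 whole cell D2 samples and the table has 7 whole cell D2 columns. The repeat column is named D1, and the study's supplement also names it as a repeat of D1 number 1. A sample title of that number names D2-MSNs, so results were also computed without the repeat column. Counts of the repeat column and of D1 number 1 differed by 6.90 in chi-square per degree of freedom. This was above the lowest value between separate whole cell D1 libraries (6.02) and the 1.04 of the lanes. The repeat run thus differed as much as separate libraries can, and results were also computed with it as a ninth library.

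Gene spans, exons and types came from GENCODE vM21 (GRCm38), which matched 52489 genes (99.7%). Tests used edgeR 4.0.16 (quasi-likelihood, TMM, Benjamini-Hochberg over all genes tested), with cell type alone within a method and 1 mean per method and cell type between methods. Genes had over 1 fragment in a library scaled to FPM in at least 2 libraries. Within a method they also had FPKM of at least 1 in 1 library and at most 50000 in all (nuclear, whole cell) or at least 0.1 in 2 (RiboTag). A call needed an adjusted p of at most 0.05, a log2 difference over 0.38 and, within a method, a mean count above the 25th percentile (nuclear also an SE below the 75th). Interactions were called on the adjusted p alone. FPKM used DESeq2 1.42.0 effective library sizes. All p-values in the texts on many genes are from edgeR or, where named, DESeq2, and they measure the spread between libraries of separate mice. Total counts were 3701255 to 68777008, and 3 counts equal 0.0436 to 0.811 CPM, for counting error only. The fits were tested on simulated data, in which changes of 1 on the log2 scale were called for 24% of 50 genes when cell types were compared with nuclear libraries, 34% with whole cell and 74% with RiboTag labelled male.

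Named genes were 24 enzymes listed by symbol, every member called between cell types, and per pair of methods the 5 called members of each direction with the largest differences and no overlap. Other genes named, Jarid2 among them, were chosen after their values were seen. The members and lists were chosen with earlier results of these data known. The result of 1 listed partner gene is not reported here. Alternatives were DESeq2, its size factors, other filters, background subtraction, a replicate block and libraries left out. Those chosen after seeing the data were background subtraction with no FPKM filter, background subtraction in the interactions, leaving out the RiboTag libraries that went against their sex label (interactions included), and leaving out whole cell D2 numbers 2 and 6.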

Additional observations from a re-analysis of the deposited data

Results flagged for a closer look

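Of 126 groups of libraries examined for 16 members, 8 had a library far from the others, where chance gives about 1 in 20. Kmt5c reached 1.77 FPKM in nuclear D2 number 7, where the lowest of the group was 0.720, and 0.0778 in RiboTag D2 number 5 labelled male, where the lowest was 0.0317. Kmt2d reached 1.94 FPKM in whole cell D1 number 6. Hdac2 and Kat2a reached 3.52 and 2.67 FPKM in the same library, whole cell D2 number 1. Hdac11 reached 0.812 FPKM in RiboTag D1 number 3 labelled male, one of the libraries against its sex label. Dnmt3c stood at 0.00273 FPKM in RiboTag D2 number 5 labelled male and 0.000677 in RiboTag D2 number 3 labelled female, and at 0 in the other libraries of both groups.

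The difference between D2 and D1 was not the same in nuclear libraries as in the other methods, by the edgeR test of the interaction, for 33 members against whole cell and 37 against RiboTag labelled male, of which 0 were called without the 6 libraries against their sex label. The lowest adjusted p against whole cell belonged to the methyltransferases Kmt2d (-2.75, adjusted p = 0.0009), Setd1b (-1.85, adjusted p = 0.00125) and Kmt2b (-1.84, adjusted p = 0.00134). Against RiboTag they belonged to Setd5 (-1.42, adjusted p = 0.000121), Setd2 (-1.32, adjusted p = 0.000127) and Kmt2e (-1.54, adjusted p = 0.000144). Nuclear D1 and D2 also differed in background (4.52% and 34.4% of counts), whose part was not tested beyond the subtraction.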

How the results depend on the processing

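Members called between D2 and D1 in nuclear libraries numbered 4 with DESeq2, 35 with no FPKM filter, 20 with background also subtracted, and 0 to 4 with each library left out in turn. In whole cell libraries they numbered 3 with DESeq2, 0 with no FPKM filter, 0 with background subtracted, 0 with both, and 0 to 2 with each library left out. RiboTag stayed at 0 in both labelled sexes under every alternative run. Same-numbered libraries did not deviate together (correlations of -0.285 to 0.212 in nuclear and -0.222 to 0.106 in whole cell), so the replicate block rests on a shared number only. With it 0 members were called in nuclear (0 of all genes), 0 in whole cell (92 genes), and 0 in each RiboTag comparison.

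Interaction calls between nuclear and whole cell fell from 33 to 21 with DESeq2's size factors and to 1 with background subtracted, and between nuclear and RiboTag from 37 to 23 with background subtracted and to 0 without the 6 libraries against their sex label, where fewer samples were left. Signs turned in nuclear D2 minus D1 with no FPKM filter for Dnmt3a (-0.92), Hdac5 (-0.92), Kdm6b (-0.99), Setd1b (-1.12), Sirt2 (-0.90), Tet2 (-0.95) and Tet3 (-0.60), and with background also subtracted for Setd1b (-0.77), Tet2 (-0.64) and Tet3 (-0.11). Kmt2a turned to 0.44 in nuclear minus RiboTag with background subtracted, and Hdac1 to 0.0133 in RiboTag minus whole cell without the libraries against their sex label. The cause was not tested. Of the other log2 differences of named members, 1934 stayed on the same side of the threshold, 54 newly passed it and 24 no longer did. The sign changes listed above are those where at least 1 of the 2 fits was called. A sign change between fits that were both not called counts among the 1934. Between methods, DESeq2's size factors moved the median of all genes from -0.20 to -0.07 (nuclear minus whole cell), from -1.64 to -1.82 (RiboTag minus whole cell) and from 1.35 to 1.74 (nuclear minus RiboTag).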

Other observations

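Partners of these enzymes were followed in 7 lists of 120 genes, which cover Polycomb, the NuRD, Sin3, CoREST and related corepressors, the MLL and SET1 complexes, methyltransferases, acetyltransferases and demethylases of other names, acetyl readers, and readers and repair of DNA methylation. In RiboTag minus whole cell 76 of the 120 were higher and 17 lower, with a median of 0.66, beside 25% and 61.4% of all genes tested. By list, 10 of 12 MLL and SET1 subunits were higher, 17 of 23 acetyltransferases and acetyl readers, 15 of 22 corepressor subunits and 10 of 19 Polycomb genes. In nuclear minus RiboTag 15 were higher and 84 lower (median -0.93), beside 58.4% and 31.7% of all genes, and in nuclear minus whole cell 6 were higher and 16 lower (median -0.32), beside 4.63% and 8.34%. These medians stand beside -1.64, 1.35 and -0.20 over all genes tested.

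Between D2 and D1, edgeR called 0 of 75 partners in RiboTag labelled male (14 at an unadjusted p under 0.05), 0 of 80 in RiboTag labelled female (10) and 1 of 89 in whole cell, beside 2.56%, 1.9% and 1.06% of all genes. In nuclear libraries 60 were tested, and 12.2% of all genes were called, a share close to that of the partners. The acetyl reader Brd1 (0.47) was higher, and 5 were lower, Jarid2, Psip1 (-1.06), Chd3 (-1.05), Brd2 (-0.92) and the NuRD helicase Chd4 (-0.46).

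The Polycomb cofactor Jarid2 was called in opposite directions, at -2.70 in nuclear and 3.60 in whole cell libraries. Its FPKM ran from 8.5 through a median of 43.0 to 99.5 in nuclear D1, from 1.80 through 4.68 to 5.68 in nuclear D2, from 0.584 through 1.23 to 2.50 in whole cell D1 and from 0.613 through 8.46 to 56.0 in whole cell D2. The share of counts on an annotated ribosomal RNA gene, CT010467.1, had medians of 14.5%, 3.37%, 0.446% and 3.22% in those groups. Its part in the Jarid2 difference was not tested.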
